A study of Homo sapiens with 7 samples.

Results

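The serine and mitochondrial folate pathway is described here through 10 genes, PHGDH, PSAT1, PSPH, SHMT1, SHMT2, MTHFD1, MTHFD2, MTHFD1L, ALDH1L2 and SLC25A32, out of 20037 protein-coding genes. They were picked by their role in metabolism, with earlier results of these data known. A peak was assigned to a gene when its centre lay inside the gene span or within 10 kb of it. This gave 43 of the 37164 peaks of 6 libraries, in which the transcription factors ATF4 and MYC were profiled by chromatin immunoprecipitation sequencing, a method that sequences the DNA bound by a protein. All libraries came from the human colorectal cancer cell line DLD-1, infected with a retrovirus for MycER, a MYC fusion protein that 4-hydroxytamoxifen activates. ATF4 was profiled in 2 libraries from vehicle-treated control cells and in 2 libraries after 8 hr with 500 nM 4-hydroxytamoxifen, and MYC in 2 libraries after the same activation. Both conditions carry MycER, and cells given the inducer without MycER were not analysed here, so an effect of the inducer cannot be told apart from one of MYC activation. No MYC library of control cells was used, and the labels do not say whether the MYC antibody tells MycER from the MYC of the cell, nor whether replicates were separate cultures, so the spread between replicates may be technical.

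Cells make serine from a glycolytic intermediate in a short cytosolic chain of enzymes, PHGDH, PSAT1 and PSPH. Serine hydroxymethyltransferases then pass a carbon of serine to folate and leave glycine, and in mitochondria MTHFD2 and MTHFD1L oxidise that carbon to formate, which MTHFD1 uses in the cytosol for purine and thymidylate synthesis. ATF4, the transcription factor of the integrated stress response, is known as an activator of this pathway, and MYC is known as an activator of several of the same genes in proliferating cells.

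Signal is given as the authors' normalized tag count, the tags in a peak per 10 M tags of the library, called tags below, with hg38 coordinates. Depth was 21.04 to 24.94 M tags in the replicate 1 libraries and 49.77 to 50.31 M in the replicate 2 libraries, so it follows the replicate number, and values are given per replicate. Intervals are exact 95% Poisson intervals of the tags counted and cover counting error only. A gene without a listed peak is not shown to be unbound. The lowest tag count listed for ATF4 was 4.46 and 2.98 in control replicates 1 and 2 and 3.21 and 2.81 in activated replicates 1 and 2. No ATF4 list held a fold over the surroundings below 4. The fold over background was under 2 in 12.34% and 11.78% of peaks in control replicates 1 and 2. In activated replicates 1 and 2 it was so in 10.31% and 5.56%. The authors' settings for listing a peak are not given here.

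PHGDH, which makes the entry step of serine synthesis (chromosome 1, 119711934 to 119744215), had 1 ATF4 region at 119712710 to 119712936, inside the gene and 889 bp downstream of the start site. It held 8.02 and 11.9 tags in activated replicates 1 and 2, 6.96 tags in control replicate 2 and no listed peak in control replicate 1. Both activated libraries were thus above the 1 control library that listed the peak, but the intervals overlapped. They were 4.9 to 12.4 and 9.02 to 15.3 in activated replicates 1 and 2 and 4.85 to 9.68 in control replicate 2. Within replicate 2 the activated library had 1.70 times the tags of the control library (interval 1.10 to 2.67, which compares these libraries and not the conditions). MYC had 1 weak peak at PHGDH, with 3.79 tags in replicate 2 only and a fold of 2.74 over background, 171 bp downstream of the start site.

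PSAT1, the transaminase of the middle step (chromosome 9, 78297125 to 78330093), had its ATF4 region just upstream of the start site, at 78296889 to 78297094. The tags were 6.41 (3.67 to 10.4) and 6.63 (4.56 to 9.31) in activated replicates 1 and 2, with no peak listed in either control library. The activated intervals lay above the lowest listed control value in replicate 2 and included it in replicate 1, so at the depth of replicate 1 a control signal just below the listing limit could not be told apart from the activated one. The fold over background was 55.53 and 57.41, against a median of 5.21 and 4.57 over all peaks of those 2 lists, but the background held only 0.3 and 0.5 tags there, so these folds have no firm size. A MYC region lay 671.5 bp upstream of the start site (4.75 and 5.79 tags in replicates 1 and 2), and replicate 2 listed a further MYC peak 252 bp downstream of it (6.19 tags), so the ATF4 region lay between the MYC peaks.

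The DNA under the PSAT1 ATF4 peak of activated replicate 2 is shown because, among the 6 members with a RefSeq promoter window, this is the only ATF4 region that falls in one (GRCh38.p14, 250 bases before to 50 after a start site). It covers chr9:78296890-78297094 on the plus strand, from 235 to 31 bases upstream of the start site.
PSAT1: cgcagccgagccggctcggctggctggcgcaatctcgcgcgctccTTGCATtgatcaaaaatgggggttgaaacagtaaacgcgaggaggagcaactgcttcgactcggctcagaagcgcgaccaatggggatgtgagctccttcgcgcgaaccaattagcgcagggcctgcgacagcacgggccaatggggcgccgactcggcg
Capitals mark TTGCAT. On either strand, this window held no match to TGATGNAA, the core of the C/EBP-ATF response element that ATF4 binds with C/EBP partners, which 3.62% of the 35116 promoter windows hold. TTGCAT overlaps that core on its reverse strand, was searched after the sequence had been seen, and occurs in 10.1% of windows, so its presence here is a description only.

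PSPH, the phosphatase of the last step (chromosome 7, 56011064 to 56051444), differed from PHGDH and PSAT1 in that neither of its ATF4 regions was found in both activated libraries. The first, deep inside the gene at 56033648 to 56033895, had 4.57 tags in control replicate 2 and 5.02 in activated replicate 2, a ratio of 1.10 (0.598 to 2.03). The second had 3.42 tags in activated replicate 2 only. MYC was strong instead, with 9.03 and 15.8 tags at a region 101 bp inside the upper end of the span, which also lies within 10 kb of the chaperonin gene CCT6A. That peak stood within the top 14% and 4.24% of the MYC lists of replicates 1 and 2.

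Between the serine hydroxymethyltransferases the peaks differed by factor. SHMT2, the mitochondrial enzyme (chromosome 12, 57229711 to 57234935), had the strongest ATF4 region of the pathway and the only one with a peak in all 4 ATF4 libraries, at 57230070 to 57230293, 470.5 bp from the lower end of the span. It held 13.8 and 8.35 tags in control replicates 1 and 2 and 14.8 and 13.1 after activation, so control replicate 2 was lowest and control replicate 1 lay between the activated libraries. SHMT2 had no MYC peak in replicate 1, whereas in replicate 2 a MYC peak of 9.18 tags lay 324 bp from the lower end and another of 6.19 tags lay 5645 bp past the upper end, inside the neighbouring gene COXFA4L2. SHMT1, the cytosolic enzyme (chromosome 17, 18327873 to 18363550), had no ATF4 peak in any library. Its MYC region (5.70 and 11 tags) lay 4663.5 bp beyond the lower end of its span, inside SMCR8, and is therefore not a region at the SHMT1 start site, which was 40340.5 bp away.

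SLC25A32, the carrier that brings folate into mitochondria (chromosome 8, 103398638 to 103415107), had MYC peaks in both replicates and no ATF4 peak. The region found in both had 7.61 and 10.4 tags and lay 271 bp beyond the upper end of the span, which is also within 10 kb of DCAF13. Stronger peaks lay just inside that end, with 11.4 tags in replicate 1 and 12 in replicate 2, but at 610 and 332 bp from it, and they did not overlap.

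MTHFD2, the mitochondrial dehydrogenase and cyclohydrolase (chromosome 2, 74198615 to 74217565), had 2 ATF4 regions, both in both activated libraries and in neither control library. The first (74199088 to 74199292) lay 575 bp downstream of the start site, with 4.41 (2.20 to 7.89) and 9.44 (6.94 to 12.6) tags in activated replicates 1 and 2. The second (74209496 to 74209700) lay 10983 bp downstream, with 4.81 (2.49 to 8.40) and 5.83 (3.90 to 8.37) tags. Replicate 2 intervals were above the lowest listed control value of that replicate, and replicate 1 intervals included it. In activated replicate 1 the first region had fewer tags than every peak that control replicate 1 listed (lowest 4.46). Each ATF4 region had a MYC peak near it, 59 bp upstream of the start site with 6.59 tags in replicate 2 only, and 11332.5 bp downstream with 4.75 and 4.19 tags in replicates 1 and 2.

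MTHFD1L, the mitochondrial formate-releasing enzyme (chromosome 6, 150865702 to 151101887), is the longest member and had no region in both libraries of any condition. Its only ATF4 peak had 3.58 tags in control replicate 2, and its only MYC peak 4.59 tags in replicate 2, both far from the listed start sites. ALDH1L2, which oxidises formyl-folate in mitochondria (chromosome 12, 105019790 to 105084458), had no peak of either factor in any library. MTHFD1, the cytosolic enzyme that takes up formate (chromosome 14, 64388353 to 64460025), had the strongest MYC region of the pathway in replicate 2, at 64388272 to 64388502 over its start site, with 10.9 and 16.8 tags in replicates 1 and 2. Its ATF4 peaks did not repeat. They had 4.17 tags in control replicate 2 (list median 3.78) and, at another site, 4.01 in activated replicate 1 (list median 4.81).

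The next sequences are shown because 2 of them lie under a MYC peak and hold an E-box, and the third holds the ATF4 core without a peak. The MYC peak sequences end before the start site, and the third lies downstream of the first of the MTHFD1L start sites and upstream of the next. The first is the upstream part of the MTHFD1 MYC peak of replicate 2 (chr14:64388272-64388352, plus strand), the second that of the MTHFD2 MYC peak of replicate 2 (chr2:74198468-74198614, plus strand), and the third a stretch of the MTHFD1L promoter (chr6:150866346-150866375, plus strand), where no library had a peak.
MTHFD1: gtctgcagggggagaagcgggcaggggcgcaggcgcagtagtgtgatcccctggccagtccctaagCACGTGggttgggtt
MTHFD2: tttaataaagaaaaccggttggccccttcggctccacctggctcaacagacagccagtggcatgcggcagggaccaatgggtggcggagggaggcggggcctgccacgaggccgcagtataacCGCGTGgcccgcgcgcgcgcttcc
MTHFD1L: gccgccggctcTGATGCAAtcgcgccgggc
Capitals mark CACGTG, the canonical E-box of MYC and its partner MAX, in MTHFD1, the reverse strand of CACGCG, a variant E-box, in MTHFD2, and a match to TGATGNAA in MTHFD1L. CACGTG was found 15 bases upstream of the MTHFD1 start site and occurs in 7.26% of all promoter windows, and CACGCG, searched on both strands, in 11.4%. The MTHFD1 MYC peak of replicate 1 began downstream of this CACGTG, at 64388354, and so did not cover it. The MTHFD1L match lay 129 bases upstream of the most downstream of its 3 clustered start sites. No other member with a window had a TGATGNAA match. MTHFD1L also held CACGTG, at 150866332 to 150866337, where no MYC peak was listed, and PSAT1 held CACGCG 38 bases downstream of its start site. The windows of PHGDH and SHMT1 held none of these motifs. From the MTHFD1L match to TGATGNAA, the nearest ATF4 peak of an activated library was 441545.5 bp away, and that of control replicate 2 was 107892.5 bp away. No sequence was read for the ATF4 peaks of PHGDH, SHMT2, MTHFD2 and PSPH.

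**Figure D1:**
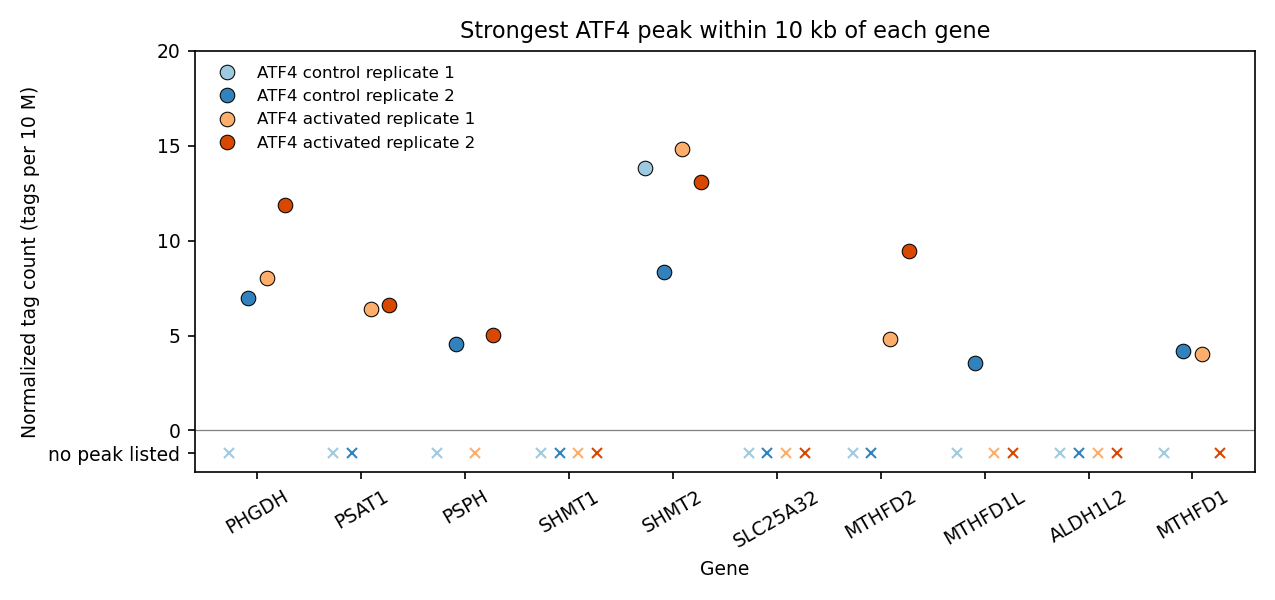
Strongest ATF4 peak within 10 kb of each of the 10 genes in the 4 ATF4 libraries, in normalized tags per 10 M (points), with a cross where no peak was listed. SHMT2 had a point in all 4 libraries (8.35 to 14.8), PSAT1 and MTHFD2 only in the activated libraries, and SHMT1, SLC25A32 and ALDH1L2 in none.

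**Figure D2:**
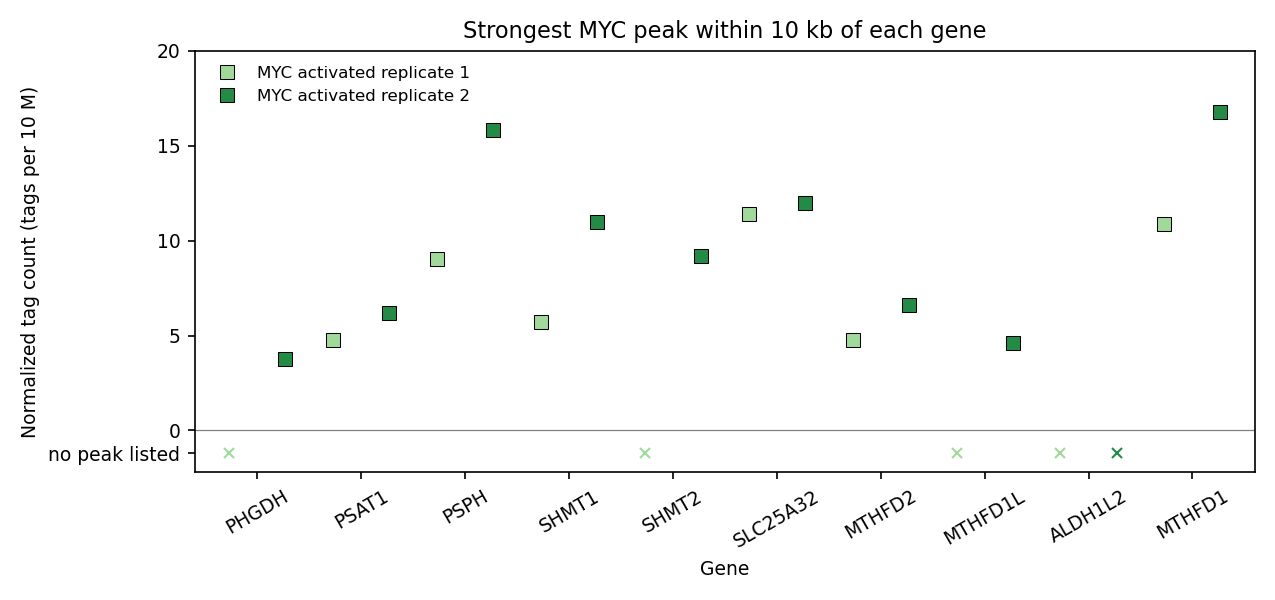
Strongest MYC peak within 10 kb of each of the 10 genes in the 2 MYC libraries, in normalized tags per 10 M (squares), with a cross where no peak was listed. PSPH and MTHFD1 reached 15.8 and 16.8 tags in replicate 2, and PHGDH, SHMT2 and MTHFD1L had a peak in replicate 2 only.

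The plots of ATF4 and MYC tags by gene show the members by factor, and whether the factors share members more or less often than other genes was not tested. Of the 4 genes with an ATF4 region in both activated libraries (PHGDH, PSAT1, SHMT2 and MTHFD2), 2 had a MYC region in both MYC libraries, and the 4 further genes with such a MYC region (PSPH, SHMT1, MTHFD1 and SLC25A32) had no ATF4 region in both activated libraries. Among all genes, 1.40% had an ATF4 region in both activated libraries and 25.2% a MYC region in both MYC libraries, against 4 and 6 of the 10 members. Of the 9 markers of other cell types reported here, 5 had such a MYC region too and none had such an ATF4 region, so the MYC count does not set the members apart. PSAT1 and MTHFD2 had both, which 0.779% of all genes did. Counted within replicates, genes with a peak of both factors in activated cells were PSAT1, MTHFD1 and MTHFD2 in replicate 1 (2.53% of all genes) and PHGDH, PSAT1, PSPH, SHMT2 and MTHFD2 in replicate 2 (6.39%). The members have a median span of 34323.5 bp against 24115 bp for all genes, so peaks were counted over a longer stretch at the median member. Whether this affected the shares was not tested. The members were also chosen with earlier results of these data known, and their shares against all genes were not tested.

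Whether MYC activation changed the number of members with ATF4 was compared over libraries. SHMT2 alone had an ATF4 region in both control libraries (0.524% of all genes), and PSAT1 and MTHFD2 had a region in both activated and in no control library (0.609%). Per library, 1 and 5 members had an ATF4 peak in control replicates 1 and 2 (2.95% and 5.37% of all genes) and 5 and 5 in activated replicates 1 and 2 (4.28% and 7.76%). The means of 3 ± 2.83 and 5 ± 0 members (SD, n = 2) were not told apart by an exact permutation test (two-sided p = 1, where 2 against 2 libraries cannot give less than 0.333). Control replicate 1 decides this difference, which was 4 members within replicate 1 and 0 within replicate 2, and 0 without control replicate 1. In replicate 2, PHGDH, PSPH and SHMT2 had a peak in both conditions. There, PSAT1 and MTHFD2 had one in the activated library only, and MTHFD1 and MTHFD1L in the control library only. The MTHFD1 and MTHFD1L peaks had 4.17 and 3.58 tags, against a median of 3.78 and a lowest value of 2.98 in that list.

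SHMT2 was the only member at which ATF4 signal could be tested, because the test used the 105 regions that every ATF4 library listed. Its tags were 11.1 ± 3.85 in control and 13.95 ± 1.20 in activated cells (SD, n = 2), and the log2 change of 0.34 (standard error 0.29) did not pass the test (adjusted p = 0.302, limma on log2(tags + 1)). The change was 0.09 within replicate 1 and 0.59 within replicate 2, with tag ratios of 1.07 (0.647 to 1.79) and 1.56 (1.05 to 2.36). Of all common regions 37.1% (39) were called higher, but 0 were with a replicate block, with centring or with any 1 ATF4 library left out. The median change was 0.54, and SHMT2 ranked 77th of the 105 by change. Relative to the typical common region it was thus not raised, and with each library centred on its median over these regions its change was -0.30.

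**Figure D3:**
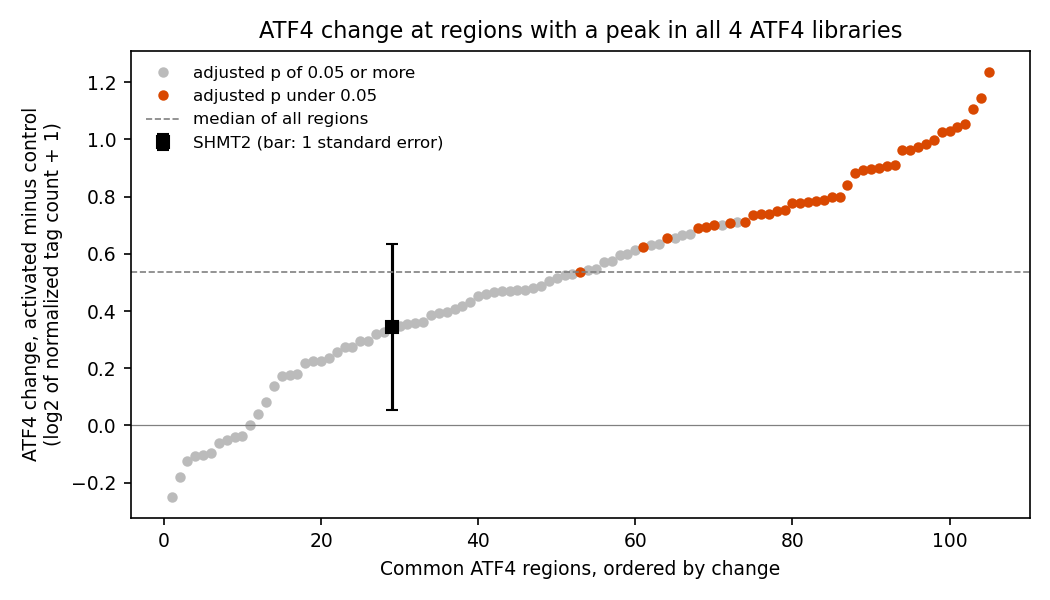
Log2 change in ATF4 tags, activated minus control, at the 105 regions listed in every ATF4 library, ordered by size, with regions at an adjusted p under 0.05 in orange (39, and 0 with a replicate block, centring or any 1 library left out) and the median of all regions dashed. SHMT2 (black square, 0.34 with a bar of 1 standard error, 0.29) lies below the median of 0.54.

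The distance between the factors was measured in activated cells, from each ATF4 peak to the nearest MYC peak of the same replicate number. In replicate 2 the centres were 34 bp apart at the intragenic PSPH site, 137 bp at SHMT2, 346 and 634 bp at the sites of MTHFD2, 385 bp at PSAT1 and 729 bp at PHGDH. Of the 7 ATF4 peaks of activated replicate 2, 6 thus had a MYC peak within 1000 bp, and these covered all 5 genes with an ATF4 peak there. Of all 1389 ATF4 peaks of that library inside or within 10 kb of a gene, 25.3% did so, with a median distance of 12199 bp against 385 bp for the members. In replicate 1, with its shorter MYC list of 8636 peaks against 22532, only the PSAT1 peak (549 bp) and the second MTHFD2 peak (372 bp) were that close, 2 of 6 member peaks against 12.8% of 744. There the nearest MYC peak was 16717 bp from the SHMT2 peak and 103923 bp from the PHGDH peak, so the closeness at these genes rests on MYC replicate 2 alone. The difference between members and other peaks was not tested, since neighbouring peaks of 1 gene are not replicates.

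**Figure D4:**
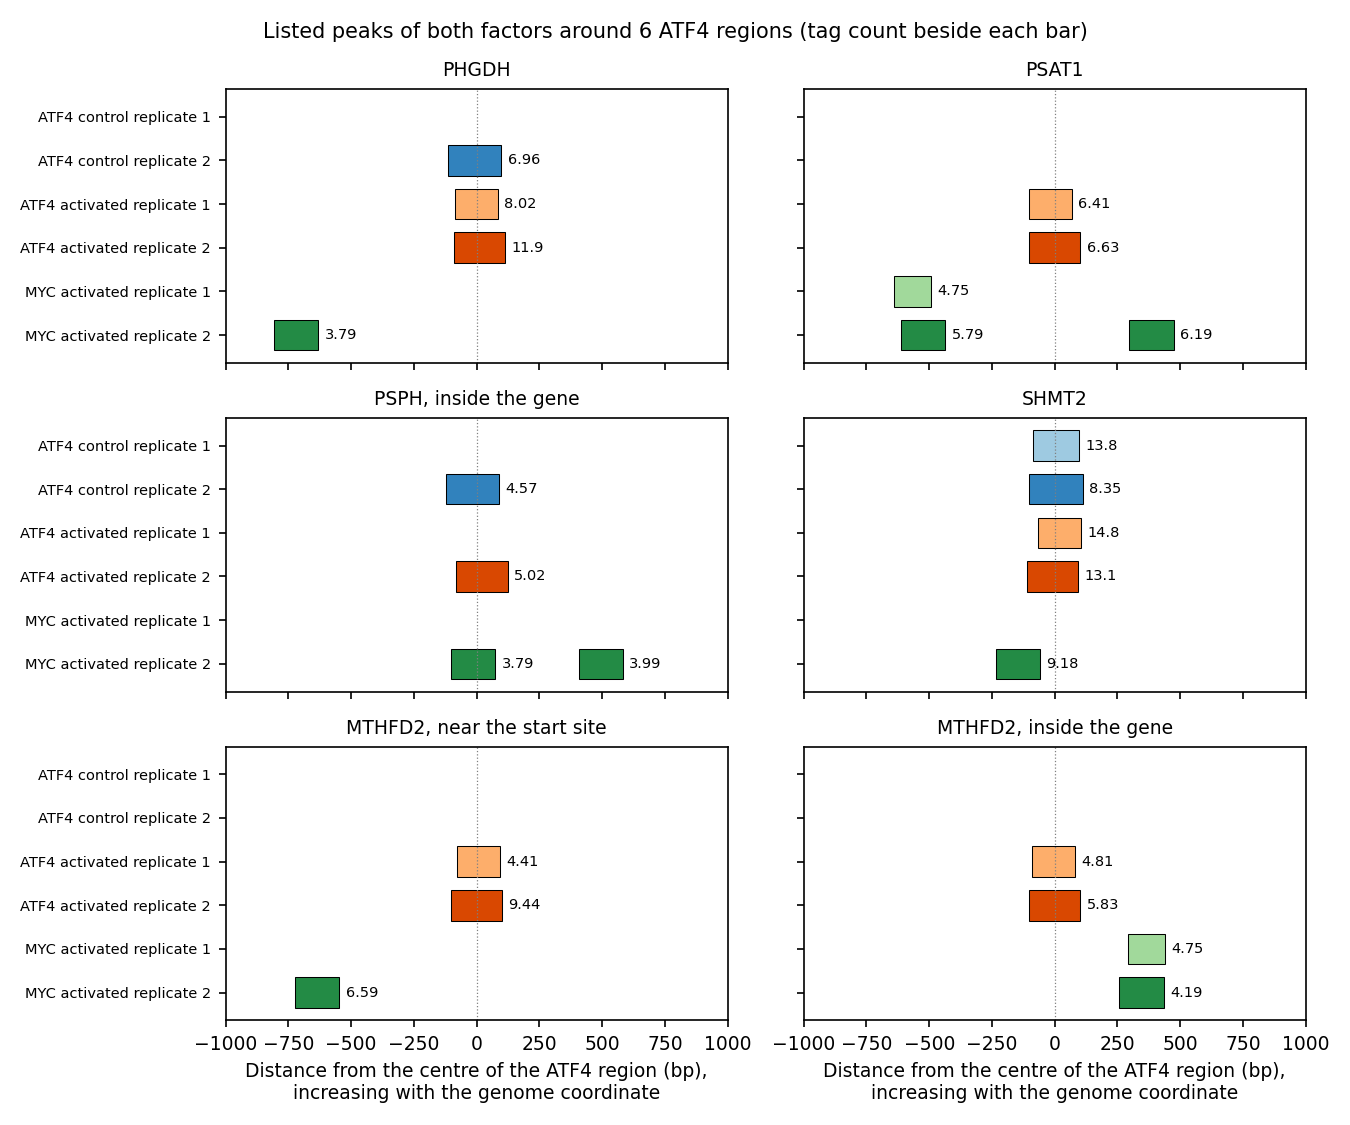
Listed peaks of the 6 libraries (bars, with the normalized tag count beside each) within 1000 bp of 6 ATF4 regions, by distance from the centre of the ATF4 region in bp. ATF4 and MYC bars overlap at SHMT2 and at the PSPH site and lie beside each other at PHGDH, PSAT1 and both MTHFD2 regions.

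Overlap of the peaks was a separate count. No member had an ATF4 region of both activated libraries that overlapped a MYC region of both MYC libraries, which 0.304% of all genes had, so a count of 0 is near the background. Peaks of replicate 2 overlapped at PSPH (by 157 bp) and SHMT2 (by 54 bp), and peaks of replicate 1 at none. At SHMT2 the MYC peak had 9.18 tags and lay toward the lower end of the span from the ATF4 peak, as at PHGDH and the first MTHFD2 region, whereas the nearest MYC peak of replicate 2 lay on the other side at PSAT1 and the second MTHFD2 region. In single libraries MYC peaks were listed at 29.7% of all genes in replicate 1 and 59.5% in replicate 2, against 6 and 9 members.

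Within their lists, the peaks of the members differed in rank. The ATF4 peak of SHMT2 ranked 44th and that of PHGDH 56th of the 2231 peaks of activated replicate 2, and the first MTHFD2 peak ranked 101st. In activated replicate 1 they ranked 81st, 199th and 959th of 1270, so the rank of the MTHFD2 peak did not repeat. Of MYC, the MTHFD1 peak ranked 782nd and the PSPH peak 956th of 22532 in replicate 2, while the PHGDH peak ranked 15842nd. The focus ratio, the share of a peak's tags placed as a sharp binding site would give them, was 0.857 to 0.944 in the 8 activated peaks of PHGDH, PSAT1, SHMT2 and MTHFD2 other than those of the first MTHFD2 region in replicate 1 (0.647) and the second in replicate 2 (0.853), and 0.591 to 0.756 in the MYC peaks that replicate 2 listed for the same genes. In replicate 1 the MYC peaks of PSAT1 and MTHFD2 had 0.875 and 0.647, so the ranges of the factors overlap.

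In the other genes of serine and folate metabolism ATF4 was not repeated and MYC was near its share among all genes. None of 11 further serine and glycine genes, 16 further folate genes and 6 methionine cycle and transsulfuration genes had an ATF4 region in both libraries of either condition. MYC regions in both libraries were present at 2, 6 and 1 of them, against 25.2% of all genes. They are SFXN3, a mitochondrial serine carrier, and GCAT of threonine breakdown, then TYMS, MTR, ALDH1L1, MTHFD2L, GGH and GART of folate use, and MAT2A of methionine activation. GART, an enzyme of purine synthesis that uses formyl-folate, had the strongest of them by mean, with 12.4 and 15.4 tags at its strongest peaks within 10 kb. Of 6 carriers that can take up serine, 3 had an ATF4 region in both activated libraries, and the same 3 had a MYC region. SLC1A5 had 6.25 and 9.14 tags in control and 11.2 and 16.7 in activated replicates 1 and 2, SLC38A2 had 3.98 in control replicate 2 and 4.81 and 8.84 after activation, and SLC38A1 had 6.01 and 6.03 after activation with none listed in control. SLC38A1, with 8.08 and 17.8 tags at its strongest MYC peaks within 10 kb, was the only one of these carriers whose regions of the 2 factors overlapped.

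**Figure D5:**
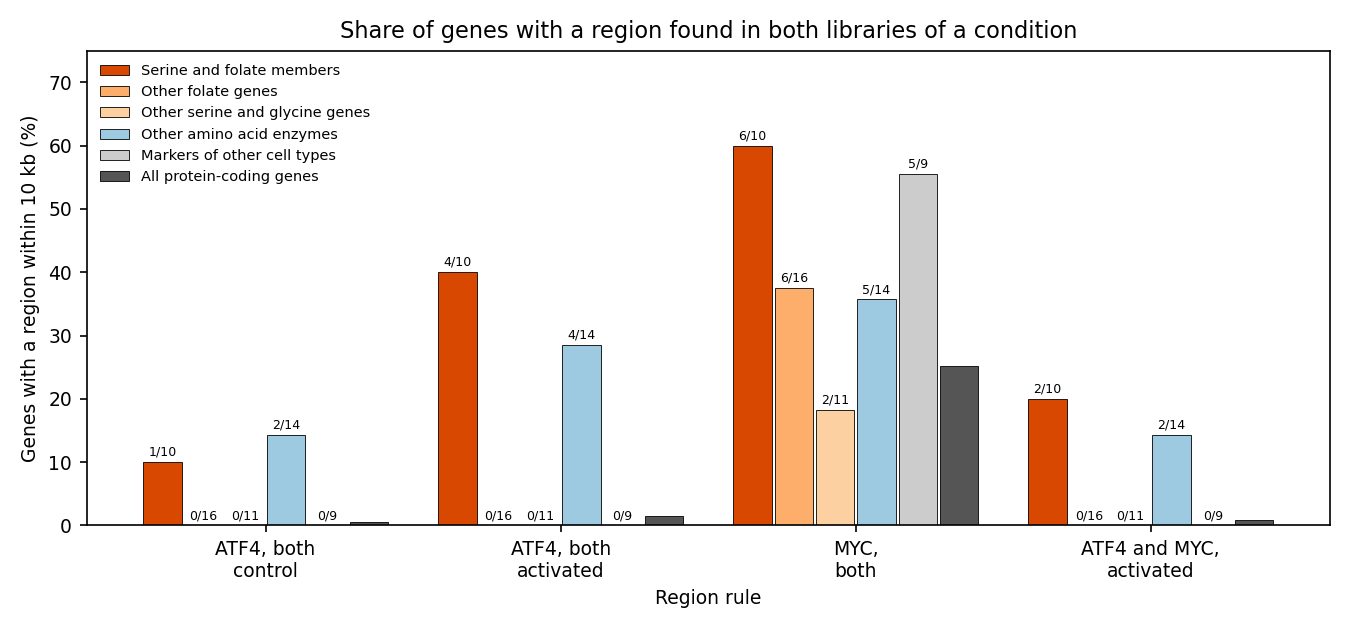
Percent of genes with a region found in both libraries, for the 10 members, 4 other gene lists (count above each bar) and all protein-coding genes (no count). ATF4 regions of activated cells were present at 4 of 10 members and 4 of 14 other amino acid enzymes and at 0 of the other lists drawn, while MYC regions were present in every list. Of the lists not drawn, the serine carriers had such ATF4 regions at 3 of 6 genes, and the methionine and colon epithelium lists at 0.

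A list of 14 other amino acid enzymes served for comparison. ASNS, GPT2, ASS1 and PCK2 had an ATF4 region in both activated libraries, 4 of 14 against 4 of 10 members, and the difference was not tested because the lists were chosen with results known. In both lists 2 genes had their region in the activated libraries only (GPT2 with 4.41 and 7.23 tags and ASS1 with 8.42 and 7.64) and 2 also had a MYC region. Unlike PSAT1 and MTHFD2, ASS1 also had an ATF4 peak in control replicate 2, of 3.78 tags and outside that region. The regions of the list found in both conditions lay at 2 genes. ASNS held 5.80 and 6.36 tags in control and 14 and 15.3 after activation, and PCK2 12.5 and 11.5 and then 23.7 and 18.3, with all activated values above all control values, whereas the values of SHMT2 overlapped. GPT2 and ASS1 had activated values like those of PSAT1 and MTHFD2.

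The genes most like each ATF4-bound member were found by the distance over the 6 libraries in log2(strongest tags + 1). A library without a listed peak was set to 0, and genes that share a peak with the member were left out. The closest were TSC22D3 and SESN2 (0.59 each) and MGAT4A (0.73) for PHGDH, and FOLR1 (0.19), FRK (0.27) and MARS1 (0.32) for PSAT1. For MTHFD2 they were STX8 (0.26), FRK (0.31) and BAALC (0.53), and for SHMT2 SLC27A1 and PGLS (1.00 each, with the same peaks) and EREG (1.01). SHMT2 thus had no neighbour as close as those of PSAT1 and MTHFD2. However, libraries in which both genes lack a peak add nothing to the distance. PSAT1 and MTHFD2 lacked a peak in both control libraries, and SHMT2 in MYC replicate 1 only.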

How the data were processed

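The authors deposited 1 peak list per library for 2 ATF4 control, 2 ATF4 activated and 2 MYC libraries, and the IgG library was not analysed here. Bowtie 0.12.9, HOMER and hg38 were used, per the submitters' processing notes, which give no settings here. Per the file headers, the lists hold a normalized tag count (a signal per 10 M tags), a focus ratio (a fraction), a fold over a background library that the headers do not name and over the surroundings, background tags and, in replicate 1, the total tags as a count. Depth was read from the steps between tag counts, and the recovered tags equalled the deposited counts in 100.0% (ATF4) and 95.4% (MYC) of replicate 1 peaks under 10 tags per 10 M. Peaks overlapping by at least 1 bp were merged per factor. A region counted when both libraries of a condition had a peak in it and its centre lay within 10 kb of a gene span of RefSeq GRCh38.p14. limma 3.58.1 with trend was fitted over all common regions (Benjamini-Hochberg, threshold 0.05), since replicate 2 lists hold no unscaled counts. edgeR 4.0.16 on recovered tags, chosen after seeing the data, was an alternative. Region and fit steps were tested on simulated data. The members and gene lists were chosen with earlier results of these data known. Besides the members, the text names listed genes with an ATF4 region in both libraries of a condition, those with the highest mean MYC tags and, by distance, the 3 genes most like each ATF4-bound member. 1 marker of the list of other cell types is not reported here. Further genes were named after their values were seen.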

Additional observations from a re-analysis of the deposited data

How the results depend on the processing

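The alternatives were windows of 1 and 50 kb or the gene span alone, peaks of at least 4-fold over background, a lowest tag count common to the libraries of a factor, sharing by centres within 100 bp, and each replicate left out. The 4 members with an ATF4 region in both activated libraries stayed within 1.5 times of that count under all of them. Members with a MYC region in both libraries fell to 3 inside the gene span alone and were 5 and 8 with windows of 1 and 50 kb. With a MYC replicate left out they were 9 (replicate 2 alone) and 6 (replicate 1 alone). The count for both control libraries ranged from 1 to 5 with a control replicate left out, where 5 is control replicate 2 alone. Members with overlapping regions numbered 0 to 1 with a replicate left out (1 without MYC replicate 1) and 2 when only number 2 libraries were used (added once the data had been seen). The difference of 2 members with an ATF4 peak per library ranged from 0 to 4 with a replicate left out, and with the replicate block it was 4 and 0 within the numbers. The 39 common regions called higher became 0 with a replicate block (smallest limma adjusted p 0.115), 0 when centred on the library median (with 9 lower, and a median change of -0.11 in place of 0.54) and 0 with any 1 of the 4 ATF4 libraries left out (the lone library then being assumed to vary like the other group), with 37, 2 and 24 to 47 higher at an unadjusted p under 0.05. edgeR called 52. SHMT2 passed under none of these and its change ranged from 0.01 to 0.67, except for -0.30 with centring. The deviations of same-numbered ATF4 libraries correlated at 0.098 over the 105 regions, and the labels do not say that the numbers pair samples. Control replicate 1, with 22.4 M tags and a lowest listed value of 4.46, limits what can be said of regions absent from control.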

Other observations

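MYC regions found in both libraries were also present at 4 of 9 colon epithelium markers, which are CDX1 and CDX2, intestinal transcription factors, and the keratins KRT8 and KRT18, against 25.2% of all genes and 5 of 9 markers of other cell types (COL1A1, PECAM1, VWF, GFAP and RBFOX3). No gene of either marker list had an ATF4 region in both libraries of a condition. Peaks measure binding and not RNA, so the lists do not check the cell type. The alanine aminotransferase gene GPT had 8.08 and 17.8 tags at its strongest MYC peaks within 10 kb in replicates 1 and 2, and no ATF4 peak. These MYC values were among the highest of the comparison lists, and the positions of the peaks relative to GPT were not examined.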
